A study of Mus musculus with 3 samples.

Results

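The subject is a set of 10 mouse genes, chosen by name, whose products let a macrophage stimulate or restrain T cells: Cd40, Cd80, Cd86, Cd83, Cd274 (PD-L1), Pdcd1lg2 (PD-L2), Icosl, Tnfsf9 (4-1BBL), Havcr2 (TIM-3) and Cd200r1. All 10 were found by symbol among the 55536 gene entries of the files. Most encode ligands, but Cd40, Havcr2 and Cd200r1 encode receptors that the macrophage itself carries. The cells were bone-marrow-derived macrophages of the C57BL/6J strain, and RNA with a poly(A) tail was sequenced after 480 minutes with a stimulus at 100 ng/mL. This is Lipid A, the membrane anchor of lipopolysaccharide and an agonist of Toll-like receptor 4, in the sample descriptions, and lipoprotein A in the treatment fields. There was 1 group of 3 libraries, here called replicates 1, 2 and 3, which the labels give as biological replicates from separate biosamples with the same donor identifier. Sex and age were not recorded. Unstimulated macrophages were not analysed here, so every value is a level after stimulation and none is a change from rest.

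A T cell needs a second signal beside recognition of peptide on MHC. CD80 and CD86, of the B7 family, give it through CD28 and take it away through CTLA4, and ICOSL acts through ICOS. CD40 on the macrophage receives the signal of CD40LG on T cells, and 4-1BBL returns a signal to T cells through 4-1BB (TNFRSF9). PD-L1 and PD-L2 bind PD-1 and restrain T cells, while TIM-3 and CD200R1 are inhibitory receptors that myeloid cells use themselves. CD83 is a surface marker of activated antigen-presenting cells that holds CD86 and MHC class II at the surface by opposing the ubiquitin ligase MARCH1.

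The libraries held 26589042, 34344922 and 48356527 expected counts (counts assigned to genes by a model) in replicates 1, 2 and 3. Levels are TPM values, transcript abundances that correct for transcript length and library total and so can be set side by side between genes. The labelled cell type was checked against marker lists. All 10 macrophage markers, Lyz2, Cd68 and Adgre1 (F4/80) among them, reached 1 TPM in every library, with a summed level of 17080 to 21650 TPM. Of 8 B cell, 8 T cell and 6 NK cell markers, 0 did so, and their summed levels were at most 1.76, 1.43 and 0.37 TPM. Replicate 2 stood apart in genes of other cells: 9 of 10 neutrophil markers were highest there alone (Cxcr2 was tied at 0.03 TPM with replicate 3), with summed levels of 22.9, 421.2 and 21.39 TPM in replicates 1, 2 and 3. In that list S100a8 and S100a9 made up most of the sum, and Mpo, Elane and Ly6g were at 0 in replicates 1 and 3. The 9 dendritic cell markers summed to 35.78, 149.9 and 42.31 TPM, of which most was the chemokine Ccl22 (29.82, 125.86 and 31.97 TPM), with the chemokine receptor gene Ccr7 at 4.16, 17.8 and 4.68 TPM. Clec9a, a marker of conventional dendritic cells, stood at 0.97, 3.95 and 4.39 TPM, whereas Zbtb46 and Flt3 stayed at or below 0.33 and 0.2 TPM.

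All 10 genes reached 1 TPM in all 3 libraries, against 17.9% of all 55536 gene entries. Their mean levels spanned 966-fold. Cd40 and Cd274 together held 81.7% of the summed level of the 10 genes, and the median gene stood at 42.4 TPM, against 14.0 TPM over all genes that reached 1 TPM in every library. The sums over the 10 genes were 2781, 3590 and 2893 TPM. In bulk RNA, fewer cells that express a gene and less of its RNA per cell cannot be told apart.

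**Figure D1:**
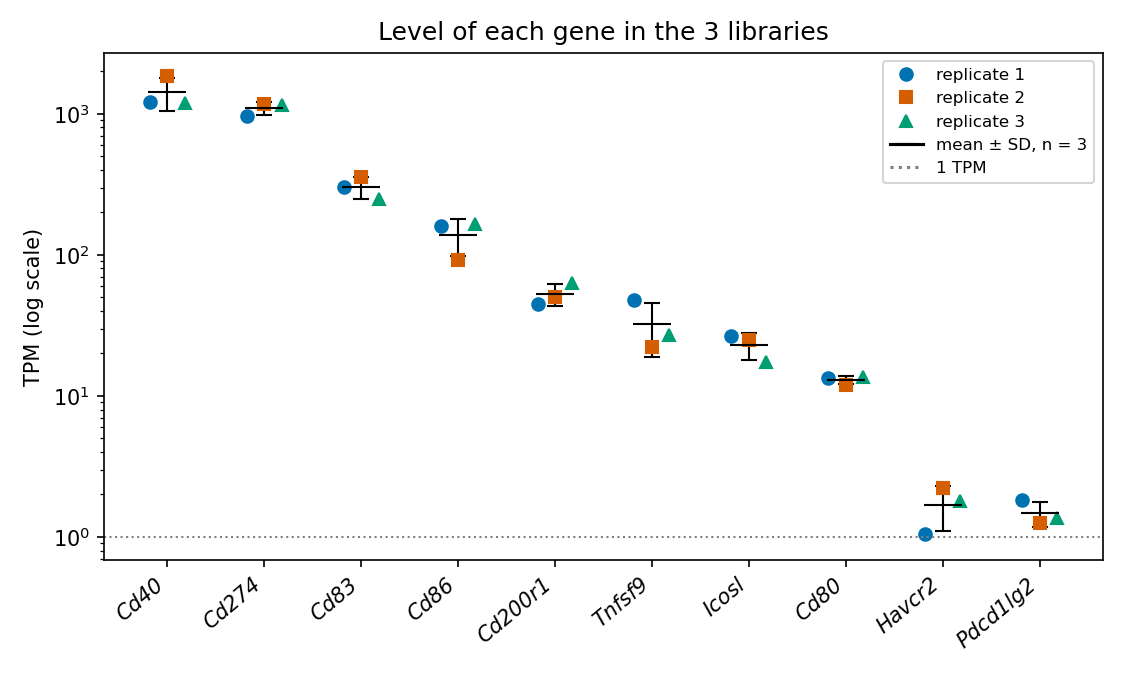
TPM of each gene (log axis) in replicates 1 (circles), 2 (squares) and 3 (triangles), with the mean and SD (n = 3) in black and 1 TPM as a dotted line. Cd40 and Cd274 sit at 963.35 TPM or higher in every library, and Havcr2 and Pdcd1lg2 sit between 1.05 and 2.21 TPM.

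By mean level the genes ran, from the top, Cd40, Cd274, Cd83, Cd86, Cd200r1, Tnfsf9, Icosl, Cd80, Havcr2 and Pdcd1lg2. Neighbours in this order were called apart when their difference in log2(TPM + 0.1) had the same sign in 3 of 3 libraries and its mean exceeded 2 SD. By that rule 4 of 9 neighbouring pairs were apart: Cd274 above Cd83, Cd86 above Cd200r1, Icosl above Cd80, and Cd80 above Havcr2. The other 5, Cd40 with Cd274, Cd83 with Cd86, Cd200r1 with Tnfsf9, Tnfsf9 with Icosl, and Havcr2 with Pdcd1lg2, were not apart. Cd200r1 lay below Tnfsf9 in replicate 1 and above it in the other libraries. Gene positions below are from GENCODE M21 on GRCm38 (mm10).

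To ask whether libraries differed by more than counting noise, counts were scaled for library size by TMM (trimmed mean of M-values) and each gene with an average of 10 counts or more was given a chi-square test (2 degrees of freedom). P-values were adjusted over all such genes by the Benjamini-Hochberg method. The call was made for 9 of the 10 genes, against 70.9% of all 12414 genes tested, so a call is the common outcome at this depth. Pdcd1lg2 was not called (adjusted p = 0.143) at 41 to 59 counts, a depth at which its 1.53-fold range was not distinguishable from counting noise. The weakest calls were Cd80 (adjusted p = 0.000781) and Havcr2 (adjusted p = 0.000663). The strongest by statistic was Cd40 (chi-square 5585). The median range was 1.52-fold over the 10 genes and 1.37-fold over all genes tested, and the median coefficient of variation was 21.8% and 16.5%. Scaled counts were highest in replicate 1 for 4 genes, in replicate 2 for 3 and in replicate 3 for 3. Over all genes tested, 33.9, 38.5 and 27.7% were highest in replicates 1, 2 and 3, so this split is no trait of the 10 genes. These p-values set the spread between these samples against counting noise alone. They depend on depth and do not measure the size of the spread, part of which may be technical. The 3 biosamples carry 1 donor identifier, and whether it stands for 1 animal or for the strain is not known.

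**Figure D2:**
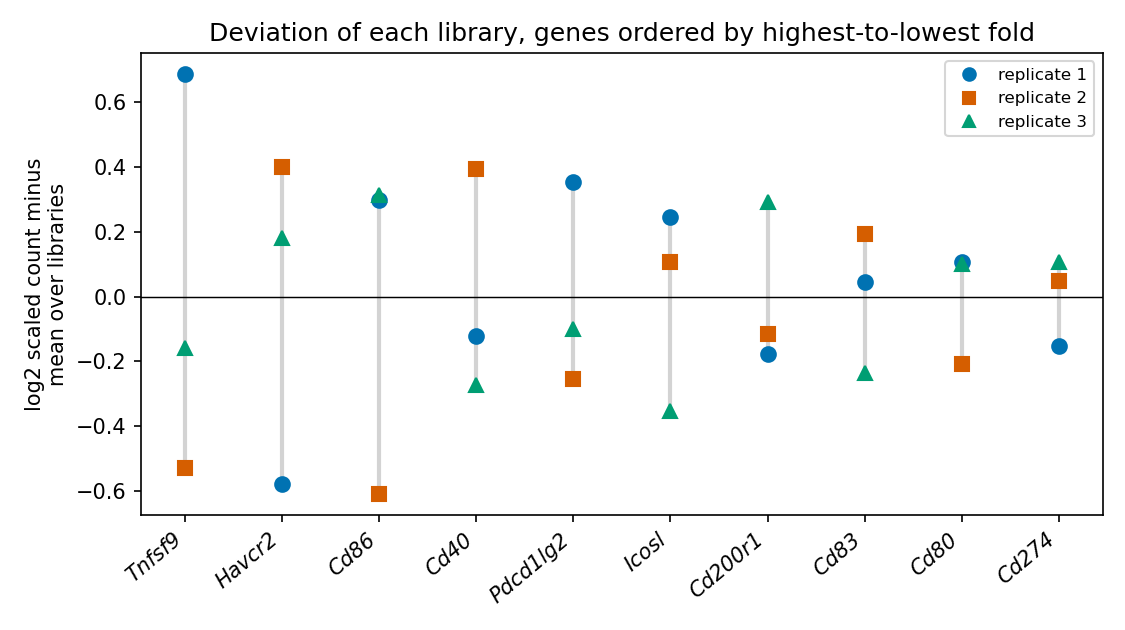
Deviation of each library's log2 TMM-scaled count from the mean over the 3 libraries, for each gene, ordered from the widest range (Tnfsf9, 2.32-fold) to the narrowest (Cd274, 1.20-fold). Replicate 2 is highest for Cd40 and Cd83 and lowest for Cd86, and no library is high for all genes.

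Cd40 (ENSMUSG00000017652.16, chr2:165055627-165072948, + strand), the receptor for the CD40 ligand of T cells, had the highest mean level of the set. It stood at 1221.35 TPM in replicate 1, 1853.59 in replicate 2 and 1194.24 in replicate 3, a mean of 1423 ± 373 TPM (SD, n = 3), and ranked 90 among all gene entries. Replicate 2 was high and the other libraries were close to each other. The highest library held 1.59-fold the scaled count of the lowest, and without replicate 2 this fold was 1.11. The neutrophil and Ccl22 transcripts given above were also highest in the library where Cd40 was highest. Their part in the Cd40 level was not tested. The ligand gene Cd40lg had no count in any library, which puts it at least 7000-fold below Cd40 when 3 counts per library are taken as the floor.

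Cd40 RNA was divided over several annotated forms, which differ in whether the annotated protein holds the hydrophobic stretch of its membrane anchor. The full-length form, Cd40-201, has 9 exons on chromosome 2. The forms with the highest shares differ from it around exons 6 and 7, so both exons are shown, on the + strand of GRCm38 (mm10), at chr2:165066503-165066564 and chr2:165069629-165069715, with the sequences cut from the GENCODE M21 transcripts. Both are coding.

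Cd40 exon 6, lacking in Cd40-203: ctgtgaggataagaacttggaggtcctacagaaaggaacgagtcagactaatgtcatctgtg
Cd40 exon 7, lacking in Cd40-202: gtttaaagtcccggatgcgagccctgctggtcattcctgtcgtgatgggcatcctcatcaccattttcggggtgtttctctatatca

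The junctions that tell the forms apart are given next, 15 bases on each side, with the downstream exon in capitals.

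Cd40-201, exon 6 to exon 7: ctaatgtcatctgtgGTTTAAAGTCCCGGA
Cd40-202, exon 6 to exon 8: ctaatgtcatctgtgAAAAGGTGGTCAAGA
Cd40-203, exon 5 to exon 7: ttatccctggacaagGTTTAAAGTCCCGGA

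Exon 7 has 87 bases, a multiple of 3, so Cd40-202 keeps the reading frame. Exon 6 has 62 bases, which is no multiple of 3, so the frame changes in Cd40-203 from exon 7 on. Translation of the annotated coding sequences and a scan with a window of 19 residues on the Kyte-Doolittle hydropathy scale (after the first 40 residues, to pass over the signal peptide) gave a peak of 2.86 at residues 195 to 213 of the 289-residue Cd40-201 protein. This window is centred in exon 7, which encodes the transmembrane segment. In the 260-residue Cd40-202 and the 203-residue Cd40-203 proteins the highest window reached 0.56 and lay in exon 4. Exon 7 is present in Cd40-203, but it is read in another frame. Another form, Cd40-207, holds the 2.86 window, keeps the intron of 101 bases after exon 7 and is annotated as a target of nonsense-mediated decay.

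Cd40-203 made up 31.46, 33.1 and 39.14% of Cd40 TPM in replicates 1, 2 and 3 (34.6 ± 4.04%, SD, n = 3). Cd40-202 made up 31.9, 33.44 and 31.05% (32.1 ± 1.21%), Cd40-201 19.2 ± 1.43% and Cd40-207 12.5 ± 2.23%. Cd40-202 led in replicates 1 and 2 by less than 1 percentage point and Cd40-203 led in replicate 3, so these 2 forms have no settled order. Together the forms without the hydrophobic window held 63.4, 66.5 and 70.2% of Cd40 TPM, a mean of 66.7 ± 3.42%. In the second quantification of the same reads, made without an alignment file, they held 61.3 ± 3.58%. The share depends on whether molecules or reads are counted: Cd40-203 is annotated with 668 bases against 2986 for Cd40-201, and as a share of expected counts the forms without the window held 47.4 ± 2.11%. Cd40-203 was then at 11.5% and Cd40-201 led with 44.1%. Reads across the junctions were not analysed here, and the annotated ends of Cd40-202 and Cd40-203 lie 1294 and 2203 bases before that of Cd40-201. Whether the shares rest on these ends or on exons 6 and 7 was not tested.

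**Figure D3:**
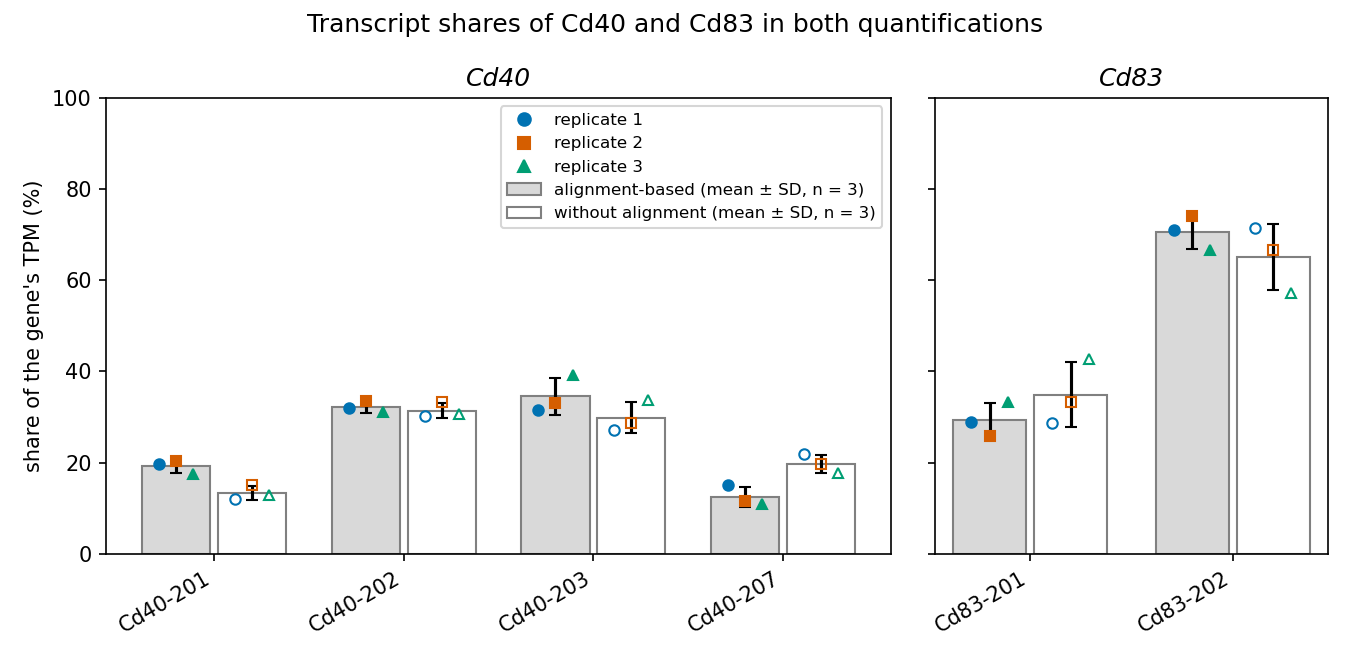
Share of the gene's TPM (%) held by annotated transcripts of Cd40 and Cd83 in replicates 1, 2 and 3, with bars for the mean and SD (n = 3) of the alignment-based (grey, filled points) and alignment-free (white, open points) quantification. Cd40-202 and Cd40-203 lie between 27.1 and 39.14% and above Cd40-201 in every library and both quantifications, and Cd83-202 lies above Cd83-201 throughout.

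Of the list of CD40 signalling genes and targets, 11 of 11 reached 1 TPM in every library, with a median of 47.5 TPM. Cflar, an inhibitor of caspase-8, stood highest at 382.8 TPM. Nfkb2, the precursor of the non-canonical NF-kappaB subunit p52, followed at 307.7 TPM and the adaptor Traf1 at 228.9 TPM. At the low end were Traf3 (5.46 TPM) and Map3k14 (5.297 TPM), the adaptor and the kinase (NIK) whose balance sets the non-canonical pathway.

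Cd86 (ENSMUSG00000022901.13, chr16:36603869-36666081, - strand) was the leading CD28 ligand. It stood at 159.45, 92.43 and 165.15 TPM in replicates 1, 2 and 3 (139 ± 40.4 TPM, SD, n = 3). Replicates 1 and 3 were alike and replicate 2 was low, so the order of the libraries was the reverse of that for Cd40. The highest-to-lowest fold of scaled counts was 1.89 and fell to 1.01 without replicate 2, where it no longer passed the test. The neutrophil and Ccl22 transcripts were highest in that same library, and their part in the low Cd86 level was not tested. Cd40 exceeded it in each library, by 3.37 ± 0.83 on the log2(TPM + 0.1) scale. Almost all Cd86 RNA was the full-length coding form Cd86-201 (95.2 ± 1.34% of TPM).

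Cd80 (ENSMUSG00000075122.5, chr16:38455561-38496335, + strand), the other CD28 and CTLA4 ligand, was much lower and steadier, at 13.46, 11.93 and 13.55 TPM (13.0 ± 0.910 TPM). Cd86 exceeded it in every library, by 3.37 ± 0.37 on the log2(TPM + 0.1) scale (SD, n = 3), 10.7-fold between the means. Its 1.25-fold range of scaled counts lost the call with total count scaling (1.14-fold) and without replicate 2. Cd80-201 held 76.0 ± 2.04% and Cd80-202 20.4 ± 1.1% of its TPM, and both encode 306 codons. Cd28 itself, usually taken as a T cell gene, was read at 8.94, 10.2 and 14.03 TPM, from 634 to 1828 counts, while T cell markers were near 0. The difference between Cd80 and Cd28 was 0.25 ± 0.32 on the log2(TPM + 0.1) scale, and these 2 genes were not apart. The competing receptor Ctla4 had no count.

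Icosl (ENSMUSG00000000732.9, chr10:78069302-78083913, + strand) stood at 26.38, 24.83 and 17.25 TPM (22.8 ± 4.89 TPM), with replicate 3 low. Its scaled counts differed 1.52-fold between libraries, and 1.07-fold without replicate 3, where the call was lost. Cd86 lay above it by 2.58 ± 0.68 on the log2(TPM + 0.1) scale. Its coding form Icosl-201 held 86.9 ± 5.07% of TPM, and forms annotated with a retained intron held 16.76, 10.02 and 8.85%. Its receptor Icos had 2, 0 and 1 counts.

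Of 8 other B7 and butyrophilin-family genes found, 1 reached 1 TPM in every library. This was Vsir (VISTA), an inhibitory ligand of myeloid cells, at 62.77, 39.95 and 35.92 TPM, which is above Cd80 and Icosl in each library. Cd276 (B7-H3) was next at 0.86 TPM, and 4 of the 8 had no count in any library.

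Cd83 (ENSMUSG00000015396.4, chr13:43784775-43803132, + strand) stood at 301.62, 357.94 and 249.44 TPM (303 ± 54.3 TPM, SD, n = 3). Replicate 2 was highest and replicate 3 lowest, with a 1.35-fold range of scaled counts. This range was 1.21-fold without replicate 2 and 1.14-fold without replicate 3. Neutrophil and Ccl22 transcripts were also highest in replicate 2, and their part was not tested. The second quantification put Cd83 lower, at 245.6 TPM. Levels were lower there in general: over genes that reached 1 TPM in every library, the median ratio of second to first TPM was 0.765, 0.945 and 0.848 in replicates 1, 2 and 3. March1, which encodes the ligase that CD83 opposes, was also expressed, at 125.31, 91.92 and 111.37 TPM. Among the 80 genes of the related lists, all chosen for a relation to the set, March1 was nearest to Cd86 in level. March1 and Cd86 differed by at most 0.57 on the log2(TPM + 0.1) scale in any library. In each library Cd83 exceeded March1.

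Most Cd83 signal was assigned to a form that is not annotated as coding. Cd83-202, annotated as a retained intron form, held 71.01, 74.18 and 66.68% of its TPM (70.6 ± 3.76%), and the coding form Cd83-201 held 29.4 ± 3.76%. In the second quantification Cd83-202 held 71.4, 66.6 and 57.3%. Cd83 was the only one of the 10 genes whose leading form lacks an annotated coding sequence. The intron that Cd83-202 keeps is intron 1, 95 bases between coding exons at chr13:43785251-43785345 (GRCm38, + strand). It is printed because it is the feature behind that label, with the first and last bases, the GT and AG of a regular splice site pair, in capitals.

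Cd83 intron 1: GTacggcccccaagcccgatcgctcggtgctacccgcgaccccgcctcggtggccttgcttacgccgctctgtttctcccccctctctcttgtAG

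Cd83-202 also differs from Cd83-201 at its start, which lies 410 bases downstream. The start of Cd83 in RefSeq lies 337 bases downstream of that of Cd83-201, between the other starts. Which of these features decided the assignment was not tested.

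Tnfsf9 (ENSMUSG00000035678.8, chr17:57105325-57107757, + strand), which encodes 4-1BBL, stood at 47.66, 22.16 and 27.18 TPM (32.3 ± 13.5 TPM, SD, n = 3). Replicate 1 was high and the others lay closer together. Scaled counts ranged 2.32-fold, the widest of the 10 with TMM scaling, or 1.29-fold without replicate 1. With total count scaling Havcr2 was wider (2.18-fold against 2.10-fold). Its receptor Tnfrsf9 was itself expressed, at 4.6, 1.89 and 5.89 TPM. Tnfsf9 was higher in each library, by 3.01 ± 0.71 on the log2(TPM + 0.1) scale. Tnfsf9 has 1 annotated transcript, and 192 of its exon bases overlap Gm11110 on the other strand, which was listed at 1.2 to 2.02 TPM. Whether counting used strand is not given in the sources used here, so a small part of the reads could belong to either gene.

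Of 7 other TNF-family costimulatory ligands, 2 reached 1 TPM in every library. Tnfsf15 (TL1A) stood at 11.36, 8.7 and 7.83 TPM. Tnfsf4 (OX40L) stood at 5.28, 14.86 and 6.63 TPM and was highest in replicate 2, where neutrophil and Ccl22 transcripts were too; their part was not tested. Tnfsf8 (CD30L) reached 2.81 TPM in replicate 3 and 0.83 in replicate 2, and Cd70 had 1, 9 and 2 counts.

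Cd274 (ENSMUSG00000016496.7, chr19:29367455-29388095, + strand), which encodes PD-L1, stood at 963.35, 1173.81 and 1160.07 TPM, a mean of 1099 ± 118 TPM (SD, n = 3) and rank 126 among all gene entries. Replicate 1 was lowest. Its 1.20-fold range of scaled counts was the narrowest of the 10 with TMM scaling, but Cd80 was narrower with total count scaling (1.14-fold against 1.27-fold) and in the second quantification. The second quantification, in which levels were lower in general as given for Cd83, put it at 893.6 TPM. It has 1 annotated transcript, of which 511 exon bases overlap AC119228.1 on the other strand, listed at 14.06 to 25.08 TPM, and the same limit of strand holds as for Tnfsf9. Pdcd1lg2 (ENSMUSG00000016498.10, chr19:29410919-29471161, + strand), the PD-L2 gene, stood at 1.82, 1.25 and 1.35 TPM (1.47 ± 0.304 TPM), from 44, 41 and 59 counts. The difference between these PD-1 ligands was 8.97, 9.76 and 9.64 in the 3 libraries on the log2(TPM + 0.1) scale (9.46 ± 0.43), 746-fold between the means. Cd274 also exceeded Cd86 (3.02 ± 0.57) and Cd80, which PD-L1 can bind on the same cell (6.39 ± 0.23). Pdcd1, the PD-1 gene, had 0, 1 and 1 counts.

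The PD-1 ligand genes are neighbours on the + strand of chromosome 19, 22823 bases apart, and they stand at opposite ends of the range of levels. Their promoters are given for that reason, as the 250 bases before the RefSeq start (GRCm38.p6), Cd274 at chr19:29367188-29367437 and Pdcd1lg2 at chr19:29410669-29410918. Matches to the kappaB consensus, which NF-kappaB binds, are in capitals.

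Cd274 promoter: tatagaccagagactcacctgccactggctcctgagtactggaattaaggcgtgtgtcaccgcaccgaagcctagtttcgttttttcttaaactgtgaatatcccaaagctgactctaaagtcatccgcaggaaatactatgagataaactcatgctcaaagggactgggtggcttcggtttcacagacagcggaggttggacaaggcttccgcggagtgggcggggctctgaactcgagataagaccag
Pdcd1lg2 promoter: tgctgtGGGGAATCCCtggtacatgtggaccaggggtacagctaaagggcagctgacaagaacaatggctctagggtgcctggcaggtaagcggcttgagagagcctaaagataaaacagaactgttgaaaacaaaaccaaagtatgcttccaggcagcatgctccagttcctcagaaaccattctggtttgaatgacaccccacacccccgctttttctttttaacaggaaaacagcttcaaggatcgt

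3 motifs were searched on both strands: the kappaB consensus, the interferon response core (GAAA, any 2 bases, GAAA) and the STAT motif TTCNNNGAA. The low gene, Pdcd1lg2, held 1 kappaB match, GGGGAATCCC, 244 to 235 bases before the start, and the abundant Cd274 held none in this window. Neither promoter held a match to the other motifs. Of all 32851 promoters of the same length, 3.9% held a kappaB match, 2.98% the interferon response core and 7.02% the STAT motif. Promoters of 5 of the 10 genes were in the table, and those of Icosl, Havcr2 and Cd80 held none of the 3 motifs.

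Genes that act on the surface life of these ligands were all present, 11 of 11 at 1 TPM or more in every library, with a median of 48.1 TPM. Cmtm6, which protects PD-L1 from degradation, was the highest at 203.2, 205.63 and 210.42 TPM. Its relative Cmtm4 was at 2.15 TPM and, among the 80 genes of the related lists, was closest to Pdcd1lg2 in level. Adam17, a sheddase of surface proteins, stood at 132.77, 90.06 and 101.84 TPM. B3gnt3, which glycosylates PD-L1, was low at 6.0 TPM.

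Of 12 pairs of genes compared within each library, 10 were apart by the rule used for neighbours. In 2 of these the partner had no count in at least 1 library (Cd40lg and Pdcd1). The pairs that were not apart were Cd200r1 with Cd200 and Cd80 with Cd28.

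**Figure D4:**
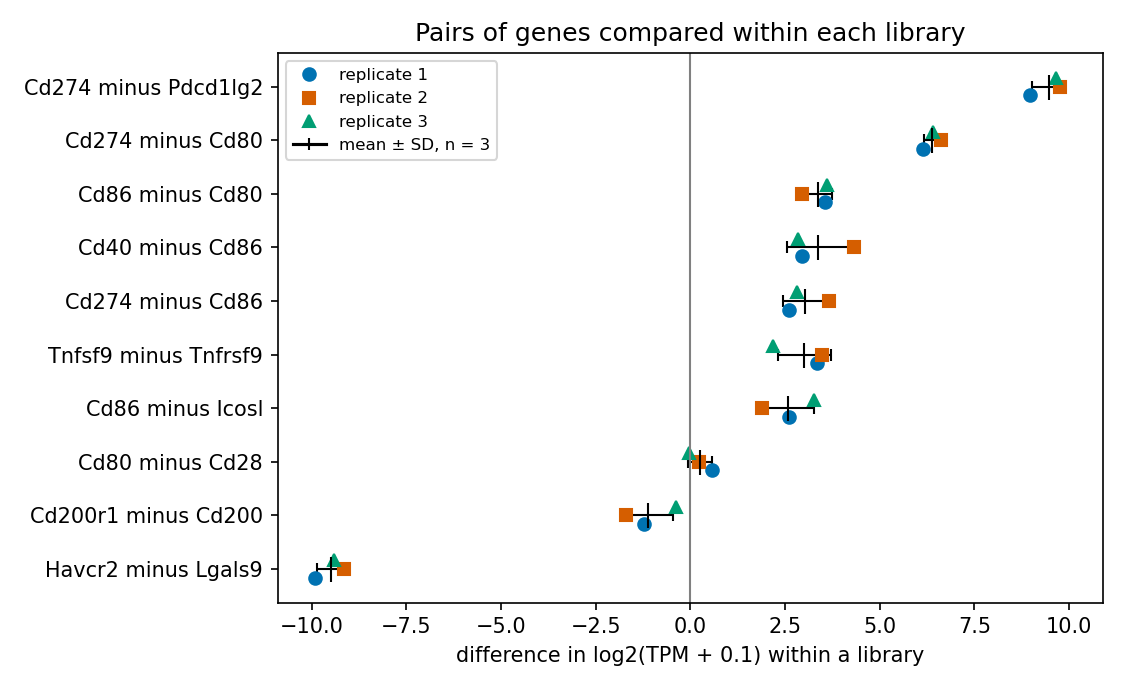
Difference in log2(TPM + 0.1) within each library for the 10 pairs in which both genes had counts in every library, with the mean and SD (n = 3) in black. Cd274 minus Pdcd1lg2 and Havcr2 minus Lgals9 lie farthest from 0, and Cd80 minus Cd28 spans it.

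Havcr2 (ENSMUSG00000020399.14, chr11:46454935-46481255, + strand), the TIM-3 gene, was low and near the cutoff of 1 TPM chosen here for detection. It stood at 1.05, 2.21 and 1.81 TPM (1.69 ± 0.589 TPM, SD, n = 3), from 45, 127 and 141 counts. Replicate 1 was low, and scaled counts ranged 1.98-fold, or 1.16-fold without that library, where the call was lost. In the second quantification replicate 1 fell below 1 TPM. That library also had the lowest median ratio of second to first TPM over detected genes (0.765). The single form Havcr2-201 held 99.5 ± 0.803% of TPM. One of its ligands, galectin-9, was abundant: Lgals9 stood at 1105.9, 1324.1 and 1290.63 TPM. Havcr2 was lower by 9.91, 9.16 and 9.4 in the respective libraries, a difference Havcr2 minus Lgals9 of -9.49 ± 0.38 on the log2(TPM + 0.1) scale. Of the other TIM-family genes, Timd4 (0.86 TPM) and Havcr1 (0.1433 TPM) did not reach 1 TPM in every library, whereas Bag6, which encodes a protein that binds the tail of TIM-3, stood at 61.55 TPM.

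Cd200r1 (ENSMUSG00000022667.18, chr16:44765736-44794978, + strand) stood at 44.64, 49.86 and 62.91 TPM (52.5 ± 9.41 TPM, SD, n = 3), with replicate 3 highest. Scaled counts ranged 1.38-fold, and 1.07-fold without replicate 3, where the call was lost. Its coding form Cd200r1-201 held 96.6 ± 0.134% of TPM. Its ligand Cd200 was present in the same libraries at 103.95, 163.26 and 82.68 TPM. Cd200 was highest in replicate 2, where neutrophil and Ccl22 transcripts were too, and their part was not tested. Cd200r1 was below Cd200 in each library, by a difference Cd200r1 minus Cd200 of -1.11 ± 0.66 on the log2(TPM + 0.1) scale, which did not exceed 2 SD. Without replicate 3 the pair was apart, at -1.46. The paralog Cd200r4, an activating receptor of the same cluster, was higher, at 265.01, 218.99 and 272.75 TPM. Cd200r2 and Cd200r3 stayed at or below 0.4 TPM. The transcripts of Cd200r1 and Cd200r4 could be told apart over most of their length: of 1862 words of 31 bases in Cd200r1-201, 4.62% also occur in Cd200r4 transcripts and 3.33% in Cd200r2. The adaptors below CD200R1 were expressed, Dok1 at 53.04, 58.7 and 60.41 TPM and Dok2 at 9.78, 19.86 and 9.25 TPM. Dok2, like Cd200, was highest in replicate 2. Dok1 was nearest to Cd200r1 in level among the 80 genes of the related lists.

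Of 16 genes listed as receptors and ligands that T cells can carry, 5 reached 1 TPM in every library: Tnfrsf14 (HVEM, 198.3 TPM), Cd200, Lag3 (17.93 TPM), Cd28 and Tnfrsf9. These 5 are not among the T cell markers checked above. Ctla4, Cd40lg and Tigit had no count. In a list of 18 other checkpoint and adhesion genes, ligands as well as receptors such as Sirpa, 16 reached it. The highest were Lgals3 (galectin-3) at 2869 TPM, the homotypic receptor Slamf7 at 1308 TPM and Lgals9 at 1240 TPM, all near or above the level of Cd274. Over 80 genes of the related lists, the one nearest in level was named for each of the 10 genes by the smallest of the largest absolute differences in log2(TPM + 0.1) over the 3 libraries. Every nearest gene is a related gene by the choice of these lists. Distances to unrelated genes were not computed, so a small distance is no sign of a shared pathway. The closest matches were Nfkb2 for Cd83 (0.15), Lgals9 for Cd274 (0.20), Dok1 for Cd200r1 (0.25) and Birc2 for Icosl (0.27). Fyn was nearest to Cd80 (0.32), Slamf7 to Cd40 (0.46), Cd24a to Havcr2 (0.48) and Siglec1 to Tnfsf9 (0.65).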

How the data were processed

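Per the readmes deposited with the samples, reads were quantified on mm10 with GENCODE M21. The programs, their versions and the strand setting: not given in the sources used here. Expected counts were deposited per gene and transcript as model-assigned values without scaling between libraries, and were rounded for testing. TPM values are as deposited, scaled to the same total in each library. Transcript shares, in percent of the TPM of the gene, are as deposited. A second deposited quantification gave estimated counts and TPM per transcript, which were summed per gene.

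All 3 libraries form 1 group, so no groups were compared. A gene was called detected at 1 TPM or more in every library. TMM factors came from edgeR 4.0.16 in R 4.3.3, and alternative size factors from DESeq2 1.42.0. Other steps used Python 3.11.15, pandas 2.3.3, numpy 2.4.6, scipy 1.17.1 and matplotlib 3.10.9. The chi-square test was tested on simulated data. Counts of 8 of the 10 genes were whole numbers within 0.005 in every library, and those of Cd274 and Tnfsf9 were not. Named genes were the 10 genes, both genes of 12 pairs, transcripts with a mean share of at least 10% and, from each other list, up to 3 genes with the highest and 2 with the lowest mean TPM. Each of the 10 genes also has its nearest gene in level among the related lists named. Icos, Ctla4, Tigit, Cd200r2, Dok2, Timd4, Zbtb46, Sirpa, Mpo, Elane and Ly6g fall outside this rule and were named after their values were seen, as were the overlapping genes. The genes, lists and pairs were chosen with earlier results of these data known. One listed gene, Ncr3lg1, was not found by symbol. Promoters are from RefSeq.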

Additional observations from a re-analysis of the deposited data

How the results depend on the processing

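No paired analysis was possible because there is only 1 group. None of the counts over the 10 genes moved by more than 1.5 times under any alternative run. The number detected was 8 with a minimum of 5 TPM and 9 in the second quantification. The number that varied beyond counting noise was 8 with total count scaling, where Cd80 was no longer called, and 7 to 8 without 1 replicate. Cd80 and Cd86 lost the call without replicate 2, Icosl and Cd200r1 without replicate 3, and Havcr2 without replicate 1, while the share of all genes called was then 42.7, 61.1 and 56.5%. Pairs apart numbered 10 to 11. Of 251 single values recomputed, 233 kept their call or stayed within the replicate spread and 0 reversed. Much of this total was fixed in advance and is no measure of robustness. It includes 30 levels and 30 leading transcript shares recomputed without 1 replicate, which cannot move a mean of 3 beyond its SD. Levels and shares are also never negative and so cannot reverse. A changed minimum mean count leaves the fold and chi-square of each gene as they were. With TPM rescaled to protein-coding nuclear genes, all 10 levels rose by a similar factor. Only 2 counted as moved, Cd80 at 15.01 and Cd274 at 1272 TPM, because their SD was the smallest beside the mean. With shares of expected counts in place of TPM, an alternative chosen after seeing the data, 10 of 10 genes had the same leading transcript in all libraries, and Cd80-201 held 64.0%. Depth limits Pdcd1lg2 and Havcr2, which had 41 to 141 counts per library.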
